A study of Mus musculus with 9 samples.

Results

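The Id genes and the E-protein genes of mouse CD8 T cells were followed by nascent RNA sequencing: the inhibitor of DNA binding genes Id1, Id2 and Id3, and Tcf3, Tcf4 and Tcf12, which encode E2A, E2-2 and HEB. The 6 members were taken by gene symbol from 37022 genes with a row in the deposited tables, and each was represented by its transcript row of largest mean gene-body signal. Of them 5 passed the filter on low values, as did 15942 genes in all, and Id1 did not. The libraries came from mouse CD8 T cells under acute stimulation (Acute), under chronic stimulation (Chronic), which is used as a culture model of T cell exhaustion, and under chronic stimulation with MEK inhibition (ChronicMEKi), with 3 libraries in each group. New RNA was labelled in living cells with 5-ethynyl uridine at 0.2 mM for 30 minutes, captured on beads and sequenced. Strain, genotype, age, the length of stimulation and the name and dose of the inhibitor are not given in the sources used here. Nothing says whether the replicates came from separate mice, so the p-values measure the spread between these libraries, which may be technical.

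E proteins are basic helix-loop-helix transcription factors that bind E-box DNA as dimers. Id proteins have the helix-loop-helix but lack the basic region that contacts DNA, so an Id protein that pairs with an E protein keeps it from binding. In CD8 T cells Id2 is known for supporting effector cells, Id3 for long-lived memory cells and their precursors, and E proteins for opposing early effector differentiation.

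The deposited values are signal in the gene body and in a pause region near the transcript start. They were multiples of a library-specific step of 0.764 to 1.06, and the number of reads behind a step is not given, so the depth in reads is unknown. Values are given as scaled signal, divided by 1 factor per library so that most genes agree between libraries; the alternatives named are division by the library total and no division (the deposited scale). Correlations of log2 signal ran from 0.959 to 0.984 within groups and from 0.910 to 0.954 between them, and no library stood apart. The 7 CD8 T cell markers all passed the filter; their summed signal was 25528 to 30997 in Acute, 16541 to 18547 in Chronic and 25261 to 27573 in ChronicMEKi. Of 6 B cell markers 3 passed, and their sum was 695 to 852 in Acute, 389 to 454 in Chronic and 247 to 676 in ChronicMEKi. For myeloid cells 2 of 6 markers passed (sums 99.3 to 233 over all libraries). For plasmacytoid dendritic cells this was 2 of 5 (1493 to 2073), and for NK cells 1 of 3 (971 to 1835, mostly Eomes). Below the filter, the NK cell marker Ncr1 was at 0 in every ChronicMEKi library. Klrb1c, also below it, had means of 9.87 in Acute, 24.1 in Chronic and 40.6 in ChronicMEKi. Both CD4 T cell markers with a row passed. Their sum was 1040 to 1367 in Acute, 1054 to 1383 in Chronic and 1729 to 2016 in ChronicMEKi. Zbtb7b had means of 789, 1002 and 1769 in these groups, and Cd4 had 442, 234 and 116. In bulk RNA, fewer cells of a type and less RNA per cell cannot be told apart.

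Under chronic stimulation the Id genes parted: Id3 fell 9.37-fold (ratio of group means) while Id2 rose 1.46-fold, a rise that was not called with 2 other scalings, and the E-protein gene Tcf12 fell 1.67-fold. With the MEK inhibitor Id3 was 7.45-fold, Tcf12 1.60-fold and Tcf3 1.64-fold higher than in Chronic, whereas Id2 was 2.38-fold and Tcf4 1.66-fold lower. A gene was called where limma's adjusted p was below 0.05. In Chronic against Acute 1 of the 5 tested members was called higher and 2 lower, beside 33.9% of all tested genes called (18% higher and 15.9% lower). In ChronicMEKi against Chronic 3 were called higher and 2 lower, beside 17.6% of all tested genes (9.93% higher and 7.65% lower). In ChronicMEKi against Acute 1 was called higher and 2 lower, beside 25.8% (14.4% higher and 11.5% lower). The libraries of the groups did not overlap for 4, 5 and 4 of the 5 members in these comparisons, beside 44.2%, 32.2% and 42% of all tested genes. The comparisons share libraries, so they are not independent of each other.

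**Figure D1:**
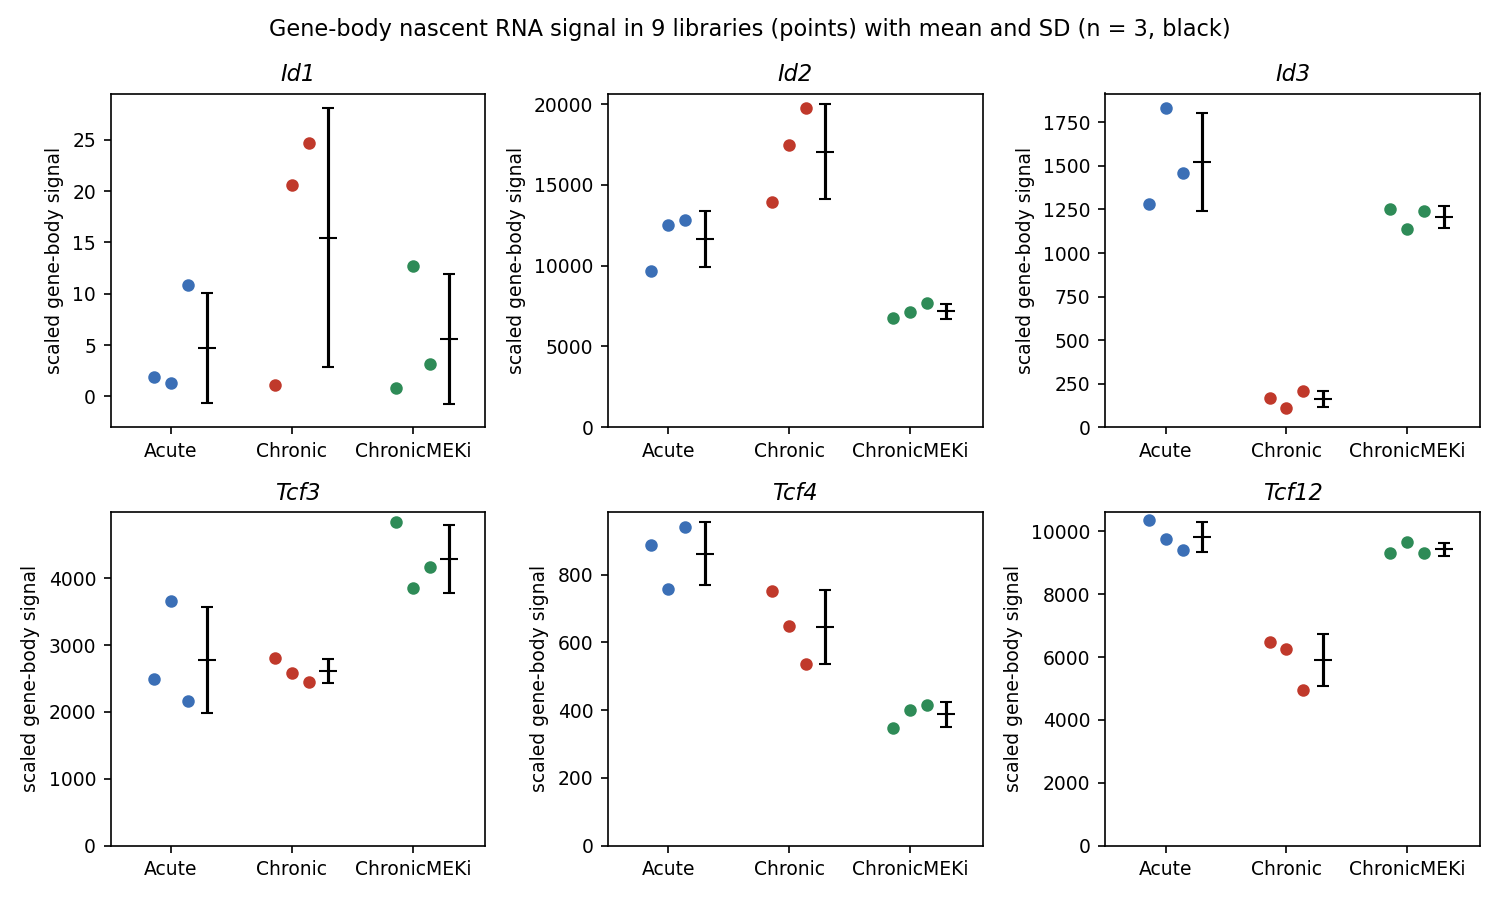
Scaled gene-body signal (vertical axis, arbitrary units) of the 6 genes in the 9 libraries (points, in 3 groups), with the mean and SD of each group in black (n = 3). Id3 is low in the 3 Chronic libraries, at 112 to 206, and Id2 is lowest in the 3 ChronicMEKi libraries, at 6752 to 7683.

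**Figure D2:**
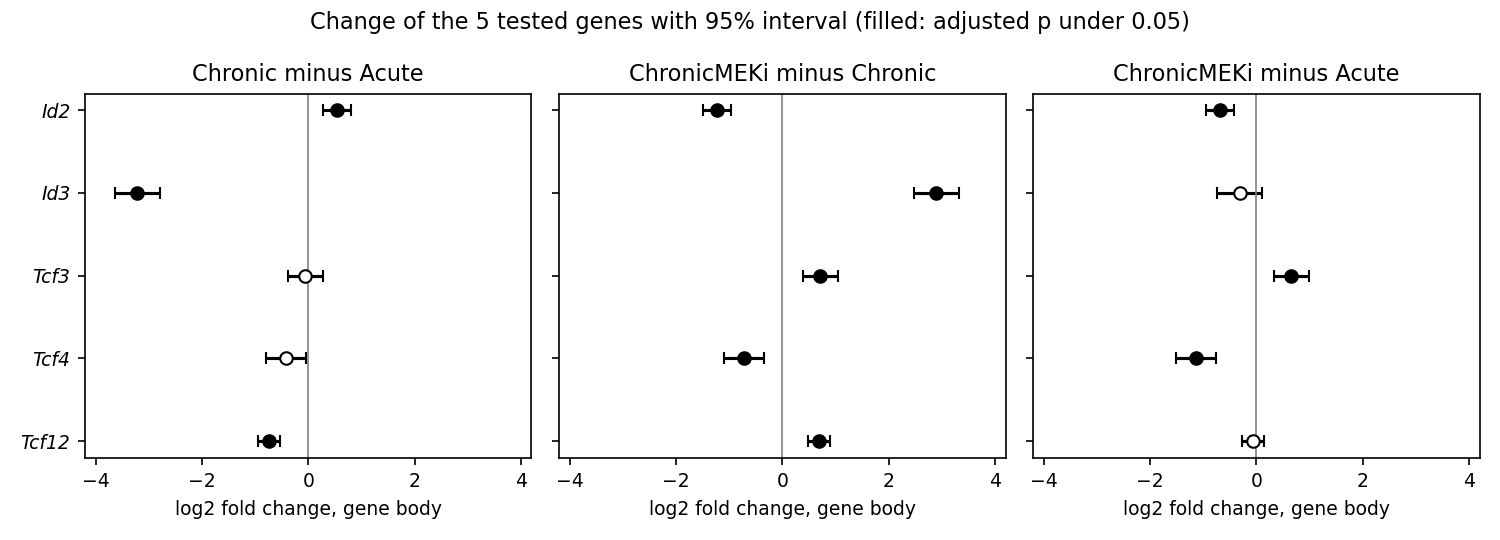
Log2 fold change in the gene body (horizontal axis) of the 5 tested genes in the 3 comparisons, with 95% intervals from limma; filled points have an adjusted p under 0.05. Id3 and Tcf12 lie below 0 in the first comparison and above it in the second, and Id2 does the opposite.

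Id3 spans chr4:136143497-136145755 on the plus strand (GRCm38), and no other annotated gene overlaps it. Its scaled gene-body signal was 1279, 1830 and 1457 in the Acute libraries, 169, 112 and 206 in the Chronic libraries, and 1250, 1136 and 1242 in the ChronicMEKi libraries. Every Chronic library lay below every other library, and the ChronicMEKi libraries lay just below the lowest Acute library. The group means were 1522 ± 281, 162 ± 47.0 and 1209 ± 63.4 (SD, n = 3). The log2 fold change in Chronic against Acute was -3.21 (SE 0.203, limma adjusted p = 7.32e-10), and only 63 of the 15942 tested genes had a lower value. In ChronicMEKi against Chronic it was 2.90 (SE 0.203, limma adjusted p = 9.45e-09), and 16 genes had a higher value. Against Acute, the ChronicMEKi value was -0.32 (95% interval -0.74 to 0.11, limma adjusted p = 0.288), which was not called. It was called lower on the deposited scale (-0.66, adjusted p = 0.0156) and with library totals (-0.70, adjusted p = 0.00909). The sum of the CD8 T cell markers was also lowest in Chronic, as was the B cell sum against Acute. Of the 7 CD8 T cell markers 5 were called lower in Chronic against Acute, among them Cd8a (-2.07) and Thy1 (-0.74). Cd3d (-0.04, limma adjusted p = 0.856) and Cd3g (0.09, limma adjusted p = 0.598) were not called. The part of either set of markers in the Id3 result was not tested.

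Id2 spans chr12:25093799-25097140 on the minus strand, also without an overlapping gene. The Acute libraries gave 9673, 12494 and 12805, the Chronic libraries 13953, 17463 and 19770, and the ChronicMEKi libraries 6752, 7109 and 7683. The groups did not overlap in any comparison: all Chronic libraries were above all Acute libraries, and all ChronicMEKi libraries were below both. The means were 11657 ± 1726, 17062 ± 2929 and 7182 ± 470.0 (SD, n = 3). Chronic exceeded Acute by 0.55 on the log2 scale (SE 0.125, limma adjusted p = 0.00262). That call rests on the scaling. With library totals the value was 0.06 (adjusted p = 0.744) and on the deposited scale 0.07 (adjusted p = 0.664), while the median of all tested genes moved from -0.02 to -0.50 and -0.48. Under MEK inhibition Id2 fell by 1.24 on the log2 scale against Chronic (SE 0.125, limma adjusted p = 1.89e-06) and by 0.69 against Acute (limma adjusted p = 0.000554). Only 376 tested genes had a lower value in the first of these. The NK cell marker sum, mostly Eomes, which CD8 T cells also express, was 1263 to 1434 in Acute, 971 to 1835 in Chronic and 1568 to 1693 in ChronicMEKi, and its part in the Id2 result was not tested.

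Id1, at chr2:152736251-152737410 on the plus strand, was near 0 throughout. Its signal was 1.92, 1.31 and 10.9 in Acute, 1.13, 20.6 and 24.7 in Chronic, and 0.801, 12.7 and 3.12 in ChronicMEKi. The groups overlapped, no library reached the minimum of 50, and Id1 entered no test. With no filter it had a log2 difference of 0.94 in Chronic against Acute (limma adjusted p = 0.461).

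Levels of different genes were set side by side per kb of annotated transcript span; the counted windows are not given in the sources used here, so the span only stands in for their length. By this measure Id2 stood above Id3 in every group. Id2 had 3488 signal units per kb in Acute, 5105 in Chronic and 2149 in ChronicMEKi, above 99.8%, 99.9% and 99.5% of the tested genes. The Id3 level per kb was 803, 85.7 and 638, above 98.4%, 73.7% and 97.8% of them. The ratio of Id2 to Id3 per kb was 4.38 ± 0.562 in Acute, 63.1 ± 21.9 in Chronic and 3.37 ± 0.270 in ChronicMEKi (SD, n = 3). In the Chronic libraries it ran from 46.8 to 88.1, and in the others from 3.06 to 4.98. The ratio is taken within a library, so the scaling between libraries does not enter it. The levels depend on the row: the other rows gave 908 to 5109 units per kb for Id2 and 3.54 to 277 for Id3 over the group means, and in each group every Id2 row was above every Id3 row.

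**Figure D3:**
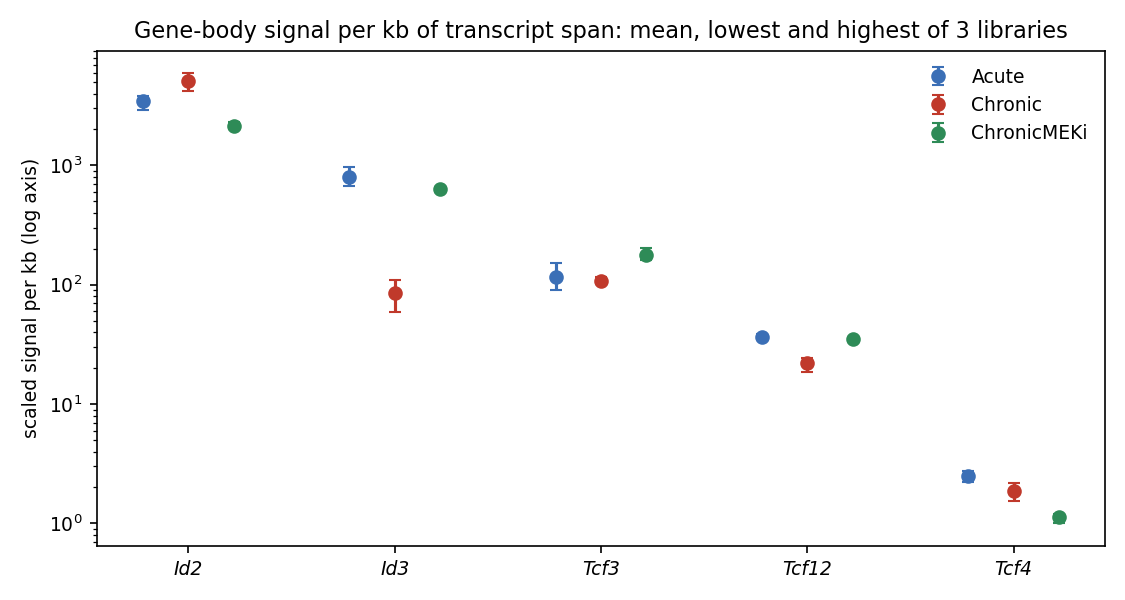
Scaled gene-body signal per kb of transcript span (vertical log axis) for the 5 tested genes; points are group means and bars run from the lowest to the highest of 3 libraries. Id2 is above every other member in all 3 groups, and Id3 drops from 803 to 85.7 in Chronic.

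The pause-region table depends on which annotated start is used. The rows chosen by gene-body signal begin upstream of the RefSeq start, and their pause windows were nearly empty. For Id2 these means were 28.3 in Acute, 31.0 in Chronic and 12.8 in ChronicMEKi, and for Id3 4.50, 1.34 and 1.51. The 30 bases around the RefSeq start of both genes are given because the row of largest pause-region signal starts at or near it; the capital marks the first transcribed base in RefSeq (GRCm38.p6, chr12:25096078-25096107 on the minus strand and chr4:136143807-136143836 on the plus strand).
Id2: cgcccggctcgcgctTcattctgaaccgag
Id3: gctgcaggcgtgcgcGcactgtttgctgct
The row of largest pause-region signal starts at this base for Id2 (25096092) and at 136143864 for Id3, downstream of the RefSeq start at 136143822. These rows were taken after the data had been seen.

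With these rows, Id2 had pause-region signal of 2921, 3931 and 4006 in Acute, 4472, 5582 and 5867 in Chronic, and 1839, 2310 and 2025 in ChronicMEKi. Id3 had 1067, 1091 and 1385 in Acute, 104, 90.0 and 115 in Chronic, and 678, 627 and 701 in ChronicMEKi. No groups overlapped for either gene, but the share of all genes with such rows for which this holds was not counted. These rows start inside the span of the gene-body rows, so both values may count the same reads and are not independent. Among 9073 genes tested with such rows, 13% were called in Chronic against Acute, 3.69% in ChronicMEKi against Chronic and 6.93% in ChronicMEKi against Acute. Of the 4 members tested with such rows, both Id genes were called in all 3 comparisons, and Tcf3 and Tcf12 in none (limma adjusted p = 0.311 to 0.982). Id3 had log2 fold changes of -3.45 (limma adjusted p = 3.14e-13), 2.65 (adjusted p = 2.34e-10) and -0.81 (adjusted p = 0.0129). The last was not called on the deposited scale (adjusted p = 0.0836) or without Acute replicate 3, ChronicMEKi replicate 1 or ChronicMEKi replicate 2 (adjusted p = 0.0762, 0.0545 and 0.0782). Id2 had log2 fold changes of 0.56 (limma adjusted p = 0.0235), -1.36 (adjusted p = 2.51e-06) and -0.80 (adjusted p = 0.00231). The first was lost with library totals (-0.03), on the deposited scale (0.44, adjusted p = 0.170) and without Acute replicate 1, Chronic replicate 2 or Chronic replicate 3 (adjusted p = 0.199, 0.109 and 0.0933).

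**Figure D4:**
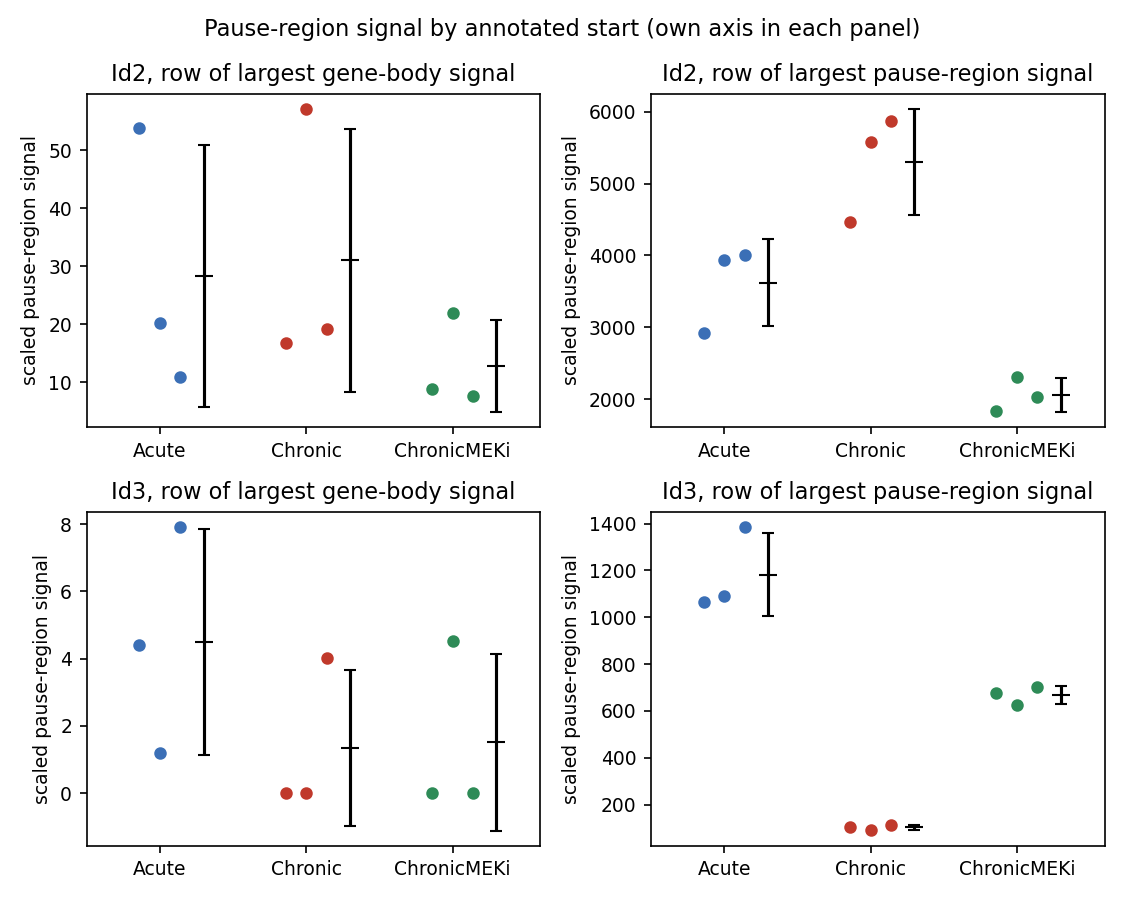
Scaled pause-region signal (vertical axis, its own range in each panel) of Id2 and Id3 in the 9 libraries, for the row of largest gene-body signal (left) and of largest pause-region signal (right), with mean and SD in black (n = 3). The left panels stay under 60, and the right panels show Id3 at 90.0 to 115 in Chronic and 1067 to 1385 in Acute.

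Tcf12, which encodes HEB, fell in Chronic and was higher again with the MEK inhibitor. It spans chr9:71842688-72111871 on the minus strand. Its gene-body signal was 10346, 9753 and 9401 in Acute, 6495, 6262 and 4956 in Chronic, and 9310, 9659 and 9303 in ChronicMEKi. All Chronic libraries lay below all others, and the Acute and ChronicMEKi libraries overlapped. On the log2 scale Chronic minus Acute was -0.74 (SE 0.0987, limma adjusted p = 1.02e-05) and ChronicMEKi minus Chronic was 0.68 (SE 0.0987, limma adjusted p = 5.74e-05). In ChronicMEKi against Acute it was -0.06 (95% interval -0.27 to 0.15, limma adjusted p = 0.708). With library totals that value became -0.44 (adjusted p = 0.0158) and on the deposited scale -0.40 (adjusted p = 0.0248). The CD8 T cell marker sum was lowest in Chronic too, though Cd3d and Cd3g were not called there, and its part in the result was not tested.

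The Tcf12 change ran along the whole gene. All 21 of its transcript rows were lower in Chronic than in Acute, by log2 differences of -1.13 to -0.34, and all were higher in ChronicMEKi than in Chronic, by 0.48 to 0.97. The rows overlap each other and are not replicates. A row over the promoter-proximal 169 kb (71942445 to 72111847) had means of 6325 ± 413, 3756 ± 681 and 5875 ± 108 in Acute, Chronic and ChronicMEKi. A row over the last 51.8 kb (71844252 to 71896086), which shares no base with it, had 1840 ± 151, 1192 ± 87.6 and 1939 ± 96.1. Tcf12 overlaps 11 other annotated genes, 7 on its own strand and 4 on the other. Whether the counting used strand is not given in the sources used here, so their reads cannot be told apart.

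Tcf3, which encodes the E12 and E47 forms of E2A, spans chr10:80409514-80433647 on the minus strand and overlaps no gene. The signal was 2495, 3666 and 2160 in Acute, 2806, 2582 and 2444 in Chronic, and 4847, 3855 and 4168 in ChronicMEKi. Every ChronicMEKi library was above every other library, while Acute spread around Chronic. Chronic against Acute gave -0.05 (95% interval -0.38 to 0.28, limma adjusted p = 0.825). It became a called fall with library totals (-0.54, adjusted p = 0.00668) and on the deposited scale (-0.53, adjusted p = 0.0109). ChronicMEKi was higher than Chronic by 0.71 (SE 0.154, limma adjusted p = 0.00375) and higher than Acute by 0.66 (SE 0.154, limma adjusted p = 0.00464). Neither of these rises was called with no filter on low values (adjusted p = 0.0732 and 0.0749) or without the intensity trend and robust moderation (adjusted p = 0.0528 and 0.0507). The rise over Acute also lost its call with library totals (0.28, adjusted p = 0.181) and on the deposited scale (0.32, adjusted p = 0.143). All 14 Tcf3 rows were higher in ChronicMEKi than in Chronic, by 0.68 to 0.92; most share nearly the whole gene, so E12 and E47 cannot be told apart here.

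Tcf4, which encodes E2-2 and is a known regulator of plasmacytoid dendritic cells, spans chr18:69343356-69689079 on the plus strand, with 1 annotated gene inside it on the same strand. Its signal was 887, 759 and 939.7 in Acute, 752, 648 and 535 in Chronic, and 346, 401 and 417 in ChronicMEKi. The groups did not overlap, with Acute highest and ChronicMEKi lowest. Chronic against Acute was -0.42 (95% interval -0.80 to -0.05), which was not called after adjustment (limma adjusted p = 0.0754). It was called with library totals (-0.91), on the deposited scale (-0.89), with totals free of ribosomal RNA-like rows (-0.58, adjusted p = 0.0195) and without Chronic replicate 1 (-0.54, adjusted p = 0.0414). ChronicMEKi fell by 0.72 against Chronic (SE 0.178, limma adjusted p = 0.00773) and by 1.14 against Acute (SE 0.178, limma adjusted p = 9.06e-05). The level was low for the length of the gene. Per kb of its 345 kb span it was above 15.5%, 13.6% and 10.8% of the tested genes in Acute, Chronic and ChronicMEKi. Its means per kb were 2.50, 1.87 and 1.13, under those of the untested Id1 (4.05, 13.3 and 4.79). Of 57 Tcf4 rows that passed the filter, 56 were lower in ChronicMEKi than in Chronic and 57 lower than in Acute. The sum of the plasmacytoid dendritic cell markers was 1493 to 1676 in Acute, 1680 to 2073 in Chronic and 1616 to 1842 in ChronicMEKi. It was mostly Ccr9, with means of 1282, 1481 and 1274, which overlaps other annotated genes, and the defining marker Siglech had means of 5.76, 3.87 and 8.04; the part of such cells in the Tcf4 result was not tested.

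**Figure D5:**
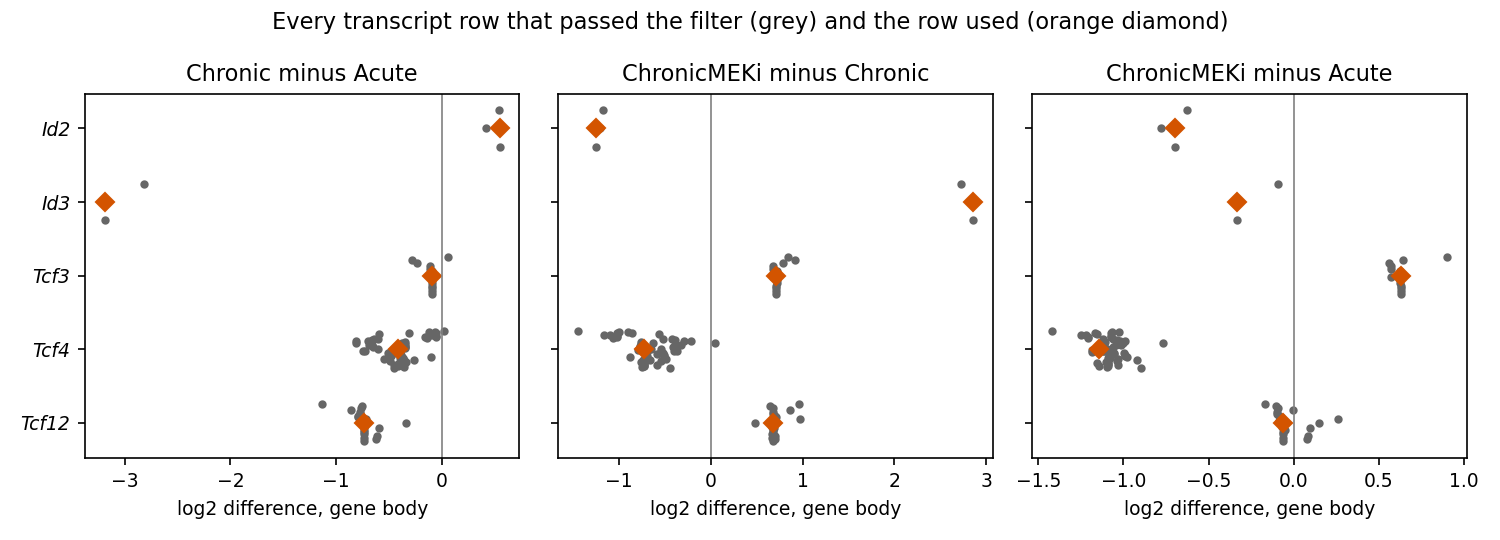
Log2 difference in mean gene-body signal (horizontal axis) for every transcript row that passed the filter (grey points) and for the row used (orange diamond), by gene and comparison. The 21 Tcf12 rows lie between -1.13 and -0.34 in Chronic against Acute, and the 14 Tcf3 rows between 0.68 and 0.92 in ChronicMEKi against Chronic.

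Per kb of span, Tcf3 had the highest gene-body signal of the E-protein genes in all 3 groups, then Tcf12, then Tcf4. Their spans are 24.1, 269 and 345 kb, and whether the order holds for transcription itself was not tested. The Tcf3 level was 115 units per kb in Acute, 108 in Chronic and 178 in ChronicMEKi. Tcf12 had 36.5, 21.9 and 35.0, and Tcf4 2.50, 1.87 and 1.13. These neighbours in the order did not overlap in any group, but Id3, at 59.3 to 108 in Chronic, overlapped Tcf3 there, at 101 to 116. As shares of the 3 genes' summed level per kb, Tcf12 made up 24.3% ± 4.64 in Acute, 16.6% ± 1.25 in Chronic and 16.5% ± 1.80 in ChronicMEKi (SD, n = 3). Tcf4 made up 1.69% ± 0.499, 1.41% ± 0.125 and 0.531% ± 0.0928. The sum itself was 154 ± 32.7, 132 ± 10.7 and 214 ± 20.4.

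In the pause-region table with the rows chosen by gene-body signal, only Tcf3 and Tcf12 passed the filter, and neither was called. The background there was 10.7% of 7678 genes in Chronic against Acute, 3% in ChronicMEKi against Chronic and 5.95% in ChronicMEKi against Acute. The signal was low: Tcf3 had 60.9 ± 36.4, 75.1 ± 40.7 and 130 ± 40.3, and Tcf12 91.7 ± 21.5, 102 ± 58.1 and 152 ± 35.7 in Acute, Chronic and ChronicMEKi. For Tcf12 in Chronic against Acute, where the gene body fell, the pause-region log2 fold change was -0.05 (limma adjusted p = 0.964). The difference of pause-region and gene-body change was 0.70 (95% interval -0.23 to 1.62, limma adjusted p = 0.590). Of 7413 genes, limma called 0 for that difference in any comparison; 749, 394 and 591 genes had an unadjusted p under 0.05.

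Windows of Id2, Id3, Tcf3 and Tcf12 were taken from RefSeq's promoter table (GRCm38.p6, 250 bases before to 50 after the start), with 3 for Tcf12. Each was searched on both strands for the E-box CANNTG, which E proteins bind, the EGR site GCGTGGGCG, the ETS site CCGGAAGT and the CRE TGACGTCA. Of all 32851 promoters 72.3%, 0.612%, 3.89% and 1.79% held these motifs, so an E-box sets no promoter apart. Id2 held 1 E-box, starting 196 bases upstream, and no other motif (chr12:25096271-25096300, minus strand). Tcf3 held 1 E-box, 54 bases upstream (chr10:80433672-80433701, minus strand), and 1 ETS site, 248 bases upstream (chr10:80433865-80433885). Every Tcf12 window held an E-box, and the Id3 window held none of the 4 motifs. Matches of Id2 and Tcf3 are printed with the motif in capitals, since Id2 was called lower and Tcf3 higher in ChronicMEKi against both other groups. The Tcf3 rise over Acute was not called with library totals or on the deposited scale. Tcf4 was also called lower against both, but its promoter was not searched. A match is a description of letters, not a site.
Id2 E-box: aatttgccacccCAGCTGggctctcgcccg
Tcf3 E-box: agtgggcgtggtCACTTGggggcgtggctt
Tcf3 ETS: tgCCGGAAGTactttagtatt

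The genes around the Id and E proteins are given from lists, with counts of called genes and the median log2 fold change beside that of all tested genes. Of 20 genes described as E-protein targets in lymphocytes 14 were tested. In Chronic against Acute 3 were higher and 6 lower (median -0.32 beside -0.02; 3 and 8 with library totals), and in ChronicMEKi against Chronic 6 were higher and 2 lower (median 0.31 beside 0.04). Foxo1, a factor of resting and memory T cells, went from 21305 ± 1598 in Acute to 7305 ± 806 in Chronic and 16810 ± 665 in ChronicMEKi. The chemokine receptor gene Cxcr4 went from 438 ± 65.8 to 212 ± 15.1 and 784 ± 55.1. Both fell and rose with Id3 and Tcf12. Cdkn1a, the inhibitor of cyclin-dependent kinases p21, instead rose in each step, from 3940 ± 637 to 11005 ± 788 and 16016 ± 850.2. Cd4 fell in each, from 442 ± 56.3 to 234 ± 101 and 116 ± 22.0, though the second fall was not called with library totals (adjusted p = 0.0989).

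Of 22 genes described as inducers of Id genes, in the EGR, BMP and TGF-beta pathways, 19 were tested. In Chronic against Acute 3 were higher and 7 lower (median -0.28 beside -0.02; 2 and 12 with library totals), and in ChronicMEKi against Chronic 3 were higher and 4 lower (median 0.06 beside 0.04). Egr2, an immediate early factor described as an inducer of Id2 and Id3, went from 176 ± 22.7 in Acute to 2075 ± 326 in Chronic and 192 ± 45.8 in ChronicMEKi. Its changes had the direction of Id2 and were opposite to Id3 in both steps. The Id2 rise in the first step was not called with library totals or on the deposited scale. Egr1, named after its values were seen, had 492 ± 68.8, 274 ± 36.4 and 32.9 ± 9.36, so it was lowest in ChronicMEKi. Tgfbr1, a TGF-beta receptor gene, went the way of Id3: 6402 ± 352, 1295 ± 39.8 and 4809 ± 54.9. Acvr1, a BMP receptor gene, had 149 ± 49.1, 553 ± 46.3 and 247 ± 41.1. The inhibitory Smad7 had 6889 ± 675, 2779 ± 69.3 and 3360 ± 212, and its second step was not called (limma adjusted p = 0.0588).

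The 16 genes of CD8 T cell states tied to Id2 and Id3 divided by state. Of 7 tested effector genes 5 were higher and 1 lower in Chronic against Acute (median 0.56; 3 and 2 with library totals), and 1 higher and 4 lower in ChronicMEKi against Chronic (median -0.29). Of 8 tested memory genes 0 were higher and 7 lower in the first (median -1.50), and 4 higher and 3 lower in the second (median 0.72). In ChronicMEKi against Acute, where Id2 was called lower, the effector genes were 6 higher and 0 lower (median 0.59; 3 and 1 with library totals), and the memory genes 0 higher and 7 lower (median -1.34). The perforin gene Prf1 went from 91.3 ± 17.7 to 2208 ± 388 and 330 ± 39.7, and Prdm1, which encodes the effector factor BLIMP1, from 335 ± 7.01 to 2380 ± 366 and 670 ± 64.7. The memory-side genes S1pr1, a receptor for tissue exit, and Slamf6, a surface receptor of stem-like cells, had 4727 ± 383 and 2618 ± 51.9 in Acute, 346 ± 68.5 and 149 ± 70.1 in Chronic, and 877 ± 70.2 and 348 ± 50.4 in ChronicMEKi. Both rose in ChronicMEKi against Chronic but lay under Acute there (limma adjusted p = 1.95e-09 and 1.87e-06).

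Other helix-loop-helix genes, and the partners of E proteins in the first 2 comparisons, were called in both directions. Of 26 other helix-loop-helix genes 10 were tested, with 2 higher and 1 lower in Chronic against Acute (1 and 5 with library totals) and 2 of each in ChronicMEKi against Chronic (medians -0.02 and 0.01). Bhlhe40, a repressor induced on T cell activation, had 6035 ± 581, 14659 ± 1673 and 8501 ± 395. Ahr, the aryl hydrocarbon receptor gene, had 3620 ± 147, 1579 ± 193 and 1580 ± 136. Hif1a rose from 14818 ± 1615 to 19725 ± 663 and fell to 12082 ± 97.5; its first step was -0.07 and not called with library totals. Tfeb, a regulator of lysosome genes, rose from 651 ± 167 in Chronic to 1579 ± 229 in ChronicMEKi, with 781 ± 59.1 in Acute. Of 14 cofactors and genes of Id protein stability 12 were tested, with 3 higher and 4 lower in Chronic against Acute and 2 higher and 1 lower in ChronicMEKi against Chronic (medians 0.10 and 0.24; the first was -0.38 with library totals). In ChronicMEKi against Acute 4 of these 12 were higher and 0 lower (median 0.46 beside 0.00), but 2 of each with library totals. The corepressor gene Cbfa2t3, whose product binds E proteins, had 241 ± 18.3, 97.7 ± 52.6 and 444 ± 76.5. Gata3 had 8269 ± 507, 29229 ± 819 and 16138 ± 871. The ubiquitin ligase genes Skp2 and Fzr1 rose in Chronic, from 1119 ± 99.2 to 2670 ± 181 and from 690 ± 213 to 1102 ± 42.3, the latter not called with library totals (adjusted p = 0.325). Of the list genes named, Foxo1, Cdkn1a, Acvr1, Slamf6, Bhlhe40, Ahr, Hif1a, Cbfa2t3, Gata3, Skp2 and Fzr1 overlap other annotated genes, whose reads cannot be told apart from theirs.

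Likeness was sought among 10651 other genes whose signal averaged 100 or more. Genes with Gm, Rik, LOC or dotted clone names and genes overlapping the member were left out. The pattern most like each member was found by Pearson's r of log2 signal over the 9 libraries, as a description. For Id3 it was Mxd1, a MAX-binding repressor, with r = 0.995 and means of 2688, 366 and 2106. For Tcf12 it was Dock9, with r = 0.995 and means of 5850, 3114 and 5652. For Id2 it was Usp39 (r = 0.982), for Tcf3 Micall1 (r = 0.981) and for Tcf4 Srsf11 (r = 0.973). The points share the same 9 libraries and 3 groups.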

How the data were processed

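Nascent RNA was measured in 9 libraries, 3 in each of 3 groups. Per the submitters' processing notes, reads were trimmed with Trim Galore 0.6.10 and aligned with STAR 2.7.0a, and the build was mm10; how the tables were counted and scaled and where the windows lie are not given in the sources used here. The deposited values are signal per transcript, not whole counts, so no count model was used. Of 118482 rows, 117346 matched GENCODE M21 transcripts by versioned identifier, 383 without version and 753 not at all. Each library was divided by a factor from its log ratios to a reference library, averaged after trimming 30% from each end and 5% by level. Genes with at least 50 in at least 3 libraries were tested with limma 3.58.1 in R 4.3.3 on log2(signal + 5), with trend and robust moderation, 1 mean per group over all 9 libraries and Benjamini-Hochberg adjustment over all genes tested. Fold changes on that scale understate low genes; fold values in the text are ratios of group means. The code was tested on simulated data. Members were fixed by symbol, and list genes named are up to 4 per list with the largest change among those called, in Chronic against Acute first and then in ChronicMEKi against Chronic. The members and lists were chosen with earlier results of these data known. Alternatives covered scaling, pseudocount, filter, row choice, moderation, a replicate block and each library left out.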

Additional observations from a re-analysis of the deposited data

How the results depend on the processing

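No called gene-body change of a member turned its direction under any alternative run, but the pause-region value of Id2 in Chronic against Acute, called at 0.56, was -0.03 with library totals. The lost and gained calls are given beside each gene. Scaling decides most of them: with library totals 1096 genes were higher and 6846 lower in Chronic against Acute, beside 2875 and 2528, and 955 and 4965 in ChronicMEKi against Acute, beside 2291 and 1827. On the deposited scale these were 1134 and 6713, and 1023 and 4542. With totals free of ribosomal RNA-like rows they were 2096 and 3759, and 1572 and 3151. In ChronicMEKi against Chronic the counts were 1769 higher and 741 lower with library totals and 1979 and 721 on the deposited scale, beside 1583 and 1219. Without a filter, 1637 genes were called in the gene body in ChronicMEKi against Chronic, beside 2802, and 2642 in ChronicMEKi against Acute, beside 4118. Leaving out 1 library gave 4411 to 5387 called genes in the gene body in Chronic against Acute, 2128 to 3041 in ChronicMEKi against Chronic and 3219 to 4553 in ChronicMEKi against Acute; without ChronicMEKi replicate 1 the second comparison had 933 higher and 1195 lower. In the pause region library totals gave 1723 called genes in Chronic against Acute, beside 823. Leaving out 1 library gave 545 to 750 there, 109 to 279 in ChronicMEKi against Chronic, beside 230, and 233 to 512 in ChronicMEKi against Acute, beside 457. For the difference of pause region and gene body in Chronic against Acute, where 0 genes were called, library totals gave 4, the deposited scale 2, a pseudocount of 0.5 gave 1, a pseudocount of 20 gave 22, and leaving out 1 library 0 to 1. In ChronicMEKi against Acute a pseudocount of 20 gave 1. The cause was not tested.

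The groups share replicate numbers, but same-numbered libraries did not deviate together (correlations of deviations -0.53 to 0.10 over 9 pairs, and -0.37 to 0.51 over 18 pairs of different numbers). A replicate block gave 5497, 2956 and 4263 called genes in the gene body in the 3 comparisons, and with it every member tested in the gene body stayed on its side of the threshold (Id2 in Chronic against Acute at 0.55, adjusted p = 4.02e-05).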
